A study of Homo sapiens with 9 samples.

Results

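The genes described here are 43 members of the homologous recombination, Fanconi anaemia, mismatch repair and checkpoint pathways, taken by name from a set list out of 25370 gene symbols in the count table. They were grouped by role into 13 genes of strand exchange, 7 of end resection and unwinding, 11 of the Fanconi pathway, 4 of mismatch repair and 8 of damage signalling. RNA was sequenced from OCI-Ly1, an established human cell line from diffuse large B-cell lymphoma, after 48 h of culture. Cells received the solvent DMSO alone or JIB-04 at 150 or 500 nM, with 3 libraries in each group, and the labels name no genetic change in any group. The compound JIB-04 blocks histone demethylases that carry a Jumonji domain. All groups are of a single cell line. Whether replicate libraries stem from separate cultures is not said in the labels. The p-values therefore cover only the spread between these libraries, and that spread may be technical.

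Homologous recombination repairs a broken chromosome by copying an intact sister sequence: nucleases trim the ends, and BRCA2 with its partners loads a recombinase onto the exposed strand. The Fanconi pathway unlocks crosslinks between the strands, with a multi-subunit ubiquitin ligase that marks FANCD2 and FANCI. Mismatch repair removes copying errors that MutS heterodimers recognise, and the kinases ATM and ATR with their targets CHEK2 and CHEK1 hold the cell cycle while repair proceeds. Germinal-centre B cells, from which this kind of lymphoma derives, make programmed DNA changes in their antibody genes.

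Libraries held 28476845 to 57198613 counts, and the members took 0.564% to 0.621% of them. All 43 members passed the filter on low counts. The 8 B-cell markers were all detected, with a summed level of 1742 to 1801 CPM (counts scaled to library size by edgeR) at 500 nM and 2113 to 2169 CPM with DMSO. The 8 markers of other cell types summed to 11.4 to 13.5 CPM at 500 nM and 24.5 to 27.8 CPM with DMSO, and COL1A1 and VWF had 0 counts in the DMSO and 150 nM libraries. In the 500 nM libraries, 12 of 12 genes of G2 and mitosis fell against DMSO (median log2 fold change -0.97). Of 14 S-phase genes 2 rose and 4 fell, and of 12 p53 targets 8 rose and 2 fell. Among all genes tested, 26.3% rose and 25.6% fell. The p53 targets that fell were RRM2B (log2 fold change -0.66) and TP53I3 (-0.79). MDM2 (0.12, adjusted p = 0.067 by edgeR) and GADD45A (0.12, adjusted p = 0.226) did not pass an adjusted p of 0.05. The part of these differences in the changes of the repair genes was not tested. In bulk RNA, fewer cells of a kind and less RNA per cell cannot be told apart.

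Seen over all 43 members, the repair genes changed little in size. At 500 nM, 8 members rose and 6 fell against DMSO by edgeR's quasi-likelihood test at a Benjamini-Hochberg adjusted p under 0.05, which is 32.6% of members. Over all 15089 genes tested the share called was 52%, with 26.3% higher and 25.6% lower. The median log2 fold change was 0.012 for the members and 0.012 for all genes. The median size of the change, without its sign, was 0.087 for the members and 0.315 for all genes. No member changed by over 2-fold, whereas 1846 of all genes did. The 500 nM and DMSO libraries did not overlap for 22 members (51.2%), against 59.2% of all genes.

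The lower dose moved few of them. At 150 nM, EXO1 rose and no member fell, a share of 2.33%, where 1.27% of all genes were called, 0.954% higher and 0.318% lower. By edgeR 8 members and 1572 of all 15089 genes had an unadjusted p under 0.05, and DESeq2 and limma-voom each called 1 member. Changes ran from -0.14 to 0.25 on the log2 scale, with 32 positive and 11 negative, against 7387 positive and 7701 negative among all genes. The 150 nM and DMSO libraries did not overlap for 7 members (16.3%), against 13.7% of all genes. The comparisons of 150 nM and of 500 nM with DMSO share the DMSO libraries.

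**Figure D1:**
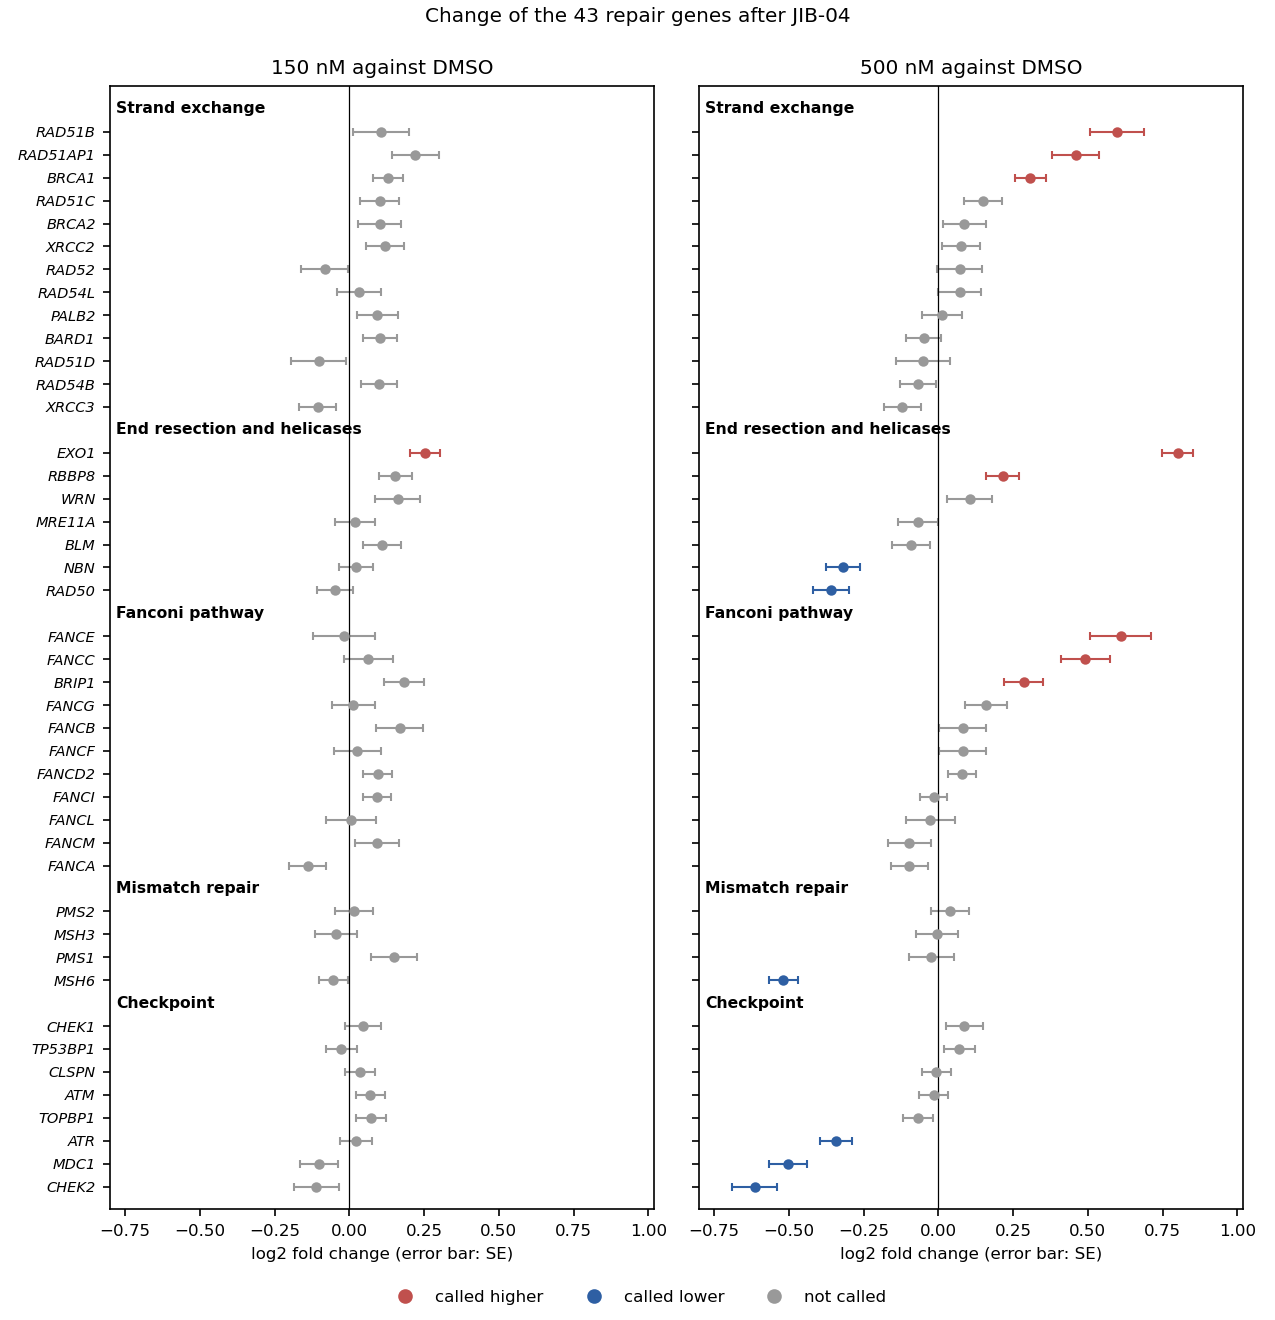
Log2 fold change of each of the 43 genes (points, with the standard error as bars) at 150 nM against DMSO (left) and 500 nM against DMSO (right), grouped by role. Coloured points passed an adjusted p under 0.05: EXO1 at 150 nM, and 8 higher and 6 lower genes at 500 nM.

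Some of these genes carry matches to E2F motifs, the binding letters of the factors that drive S-phase genes, near their start. RefSeq promoter windows (GRCh38.p14, 250 bases before to 50 after each start) were found for 38 of the 43 members, 54 windows in all. The letters TTTCCCGC, TTTCGCGC, TTTGCCGC or TTTGGCGC were present on either strand in 11 windows (20.4%) of 10 genes, against 3.31% of 35116 windows of all genes. The median GC content of the windows was 64.3% for the members and 58.7% for all genes. At 500 nM, of those 10 genes, EXO1 and FANCC rose, MSH6 fell and the other 7 were not called. Of all genes tested, 26.3% were called higher and 25.6% lower. The stretches below are those of the genes that changed, and of FANCD2 and MSH3, which did not pass the test. Capitals mark the match, and overlapping matches in MSH3 are shown as 1 run. Positions are those of the whole stretch, with the bases on both sides of the match. The EXO1 stretch lies at chr1:241848198-241848225 on the plus strand, and the MSH6 stretch at chr2:47783138-47783165 on the plus strand. FANCC has stretches at chr9:95317864-95317891 (upper) and chr9:95317738-95317765 (lower) on the minus strand. The FANCD2 stretch lies at chr3:10026425-10026452 and the MSH3 stretch at chr5:80654536-80654565, both on the plus strand.
EXO1: aaggtcagccTTTCGCGCgctgtgtagg
FANCC, upper: cggggcttccGCGCGAAAccgggaacac
FANCC, lower: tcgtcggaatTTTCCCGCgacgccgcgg
MSH6: tccccccagaTTTCCCGCcagcaggagc
FANCD2: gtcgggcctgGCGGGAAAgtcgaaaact
MSH3: gcggtcaagTTTGGCGCGAAAttgtggccg
The match of EXO1 begins 5 bases downstream of the annotated start and that of MSH6 begins 4 bases downstream, and these genes changed in opposite directions. A match is a description of the letters and not a measured binding site. The CHR element TTTGAA, found at many mitotic genes, was in 7.41% of member windows and 15.2% of all windows. The ATF4 element (TGATGCAA or TGATGAAA) was in 1 member window, that of RBBP8, which is 1.85%, against 1.96% of all windows.

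Among the 7 genes of end resection and unwinding, EXO1 and RBBP8 rose and NBN and RAD50 fell at 500 nM, a share of 28.6% higher beside the 26.3% of all genes. EXO1, an exonuclease that lengthens resected ends and also removes strands in mismatch repair, had 137, 137 and 140.1 CPM with DMSO, 161, 163 and 170 CPM at 150 nM, and 249, 238 and 234 CPM at 500 nM. Every 150 nM library lay above every DMSO library, and every 500 nM library above both. The log2 fold change was 0.80 ± 0.05 at 500 nM (SE, n = 3 per group, adjusted p = 1.95e-13 by edgeR) and 0.25 ± 0.05 at 150 nM (adjusted p = 0.00571). At 150 nM it was not called without DMSO replicate 2 (0.25, adjusted p = 0.0506).

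RBBP8, or CtIP, starts resection together with the MRE11 nuclease. Its level was 246, 239 and 258 CPM with DMSO, 255, 271 and 300.1 CPM at 150 nM, and 292, 285 and 285 CPM at 500 nM. The 500 nM libraries stood above the DMSO libraries, and the 150 nM libraries overlapped with both. It rose by 0.22 ± 0.06 on the log2 scale at 500 nM (adjusted p = 0.00171 by edgeR).

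The MRE11, RAD50 and NBN proteins form the complex that senses broken ends. NBN had 475, 528 and 531 CPM with DMSO, 468, 531 and 558 CPM at 150 nM, and 416, 407 and 406 CPM at 500 nM. RAD50 had 136, 143 and 157 CPM with DMSO, 136, 135 and 150.3 CPM at 150 nM, and 115, 111 and 112 CPM at 500 nM. For both genes all 500 nM libraries lay below all libraries of the other groups. NBN fell by 0.32 ± 0.06 (adjusted p = 2.68e-05) and RAD50 by 0.36 ± 0.06 (adjusted p = 1.16e-05) on the log2 scale at 500 nM by edgeR. MRE11A, the nuclease subunit, had a log2 fold change of -0.07 (adjusted p = 0.41), with overlapping libraries. The helicase genes BLM (-0.09) and WRN (0.11) were not called at 500 nM against DMSO. With trends on transcript GC removed, WRN was called higher (0.14, adjusted p = 0.0487 by edgeR).

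In strand exchange, 3 of 13 genes rose at 500 nM (23.1%, near the 26.3% of all genes) and none fell, with a median log2 fold change of 0.071. RAD51B, a recombinase paralog that helps load the filament, had 15.8, 18.4 and 16.3 CPM with DMSO, 18.8, 18.3 and 17.04 CPM at 150 nM, and 24.9, 24.7 and 26.5 CPM at 500 nM. RAD51AP1, which stimulates strand invasion, had 61.8, 63.4 and 76.8 CPM with DMSO, 70.4, 80.4 and 85.1 CPM at 150 nM, and 88.2, 97.7 and 92.2 CPM at 500 nM. BRCA1, the ubiquitin ligase that promotes resection and filament loading, had 183, 180.1 and 182 CPM with DMSO, 192, 199 and 205 CPM at 150 nM, and 231, 213 and 230.4 CPM at 500 nM. In each of these 3 genes the 500 nM libraries lay above all others, and for BRCA1 the 150 nM libraries also lay above DMSO.

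The log2 fold changes at 500 nM by edgeR were 0.60 ± 0.09 for RAD51B (adjusted p = 2.81e-06) and 0.46 ± 0.08 for RAD51AP1 (adjusted p = 1.83e-05). BRCA1 rose by 0.31 ± 0.05 (adjusted p = 1.14e-05). At 150 nM none of the 3 was called, with values of 0.11, 0.22 and 0.13. NBR2 is a noncoding gene, annotated as a bidirectional promoter RNA inside the BRCA1 span on the opposite strand. It had 18.8, 15.8 and 17.3 CPM at 500 nM and 5.75, 6.56 and 5.88 CPM with DMSO. Its mean was higher by 11.2 CPM at 500 nM, and that of BRCA1 by 43.2 CPM. No source used here says whether the counting used strand. Overlap was taken from whole gene spans and not from exons, so how many reads such pairs could share is not known. Among the 14 called members 4 overlap a tested gene on the opposite strand. DECR1, at NBN, had a mean of 143 CPM at 500 nM and 180.2 CPM with DMSO, a difference of -37.4 CPM beside -101.4 CPM for NBN. FBXO11, at MSH6, had 74.3 CPM at 500 nM and 85.2 CPM with DMSO, a difference of -10.9 CPM beside -198.7 CPM for MSH6. HSCB, at CHEK2, had 11.4 CPM at 500 nM and 11.4 CPM with DMSO.

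BRCA2, the recombinase loader, had 104, 111 and 114 CPM with DMSO, 99.3, 123 and 130.3 CPM at 150 nM, and 113, 116 and 121 CPM at 500 nM. The groups overlapped, and the log2 fold change at 500 nM was 0.09 ± 0.07 (adjusted p = 0.332 by edgeR), with a 95% interval of -0.06 to 0.24. BARD1, the obligate partner of BRCA1, had a value of -0.05, and PALB2, the bridge between BRCA1 and BRCA2, one of 0.01. The other recombinase paralogs had values of 0.15 for RAD51C (adjusted p = 0.0535), -0.05 for RAD51D, 0.07 for XRCC2 and -0.12 for XRCC3. After removal of the trends on transcript GC, XRCC3 was called lower (-0.30, adjusted p = 6.34e-08 by edgeR), and BRCA2 (0.12, adjusted p = 0.0252) and RAD51C (0.18, adjusted p = 0.00321) were called higher. RAD51C was also called higher by DESeq2 (adjusted p = 0.0328), by limma-voom (adjusted p = 0.0476) and with a replicate block (adjusted p = 0.0452 by edgeR). RAD52, an annealing factor, had 0.07, and the translocases RAD54L and RAD54B had 0.07 and -0.07.

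In the Fanconi pathway 3 of 11 genes rose at 500 nM (27.3%, near the 26.3% of all genes) and none fell, with a median log2 fold change of 0.081. After removal of GC trends FANCA was called lower (-0.12, adjusted p = 0.0182) and FANCD2 higher (0.12, adjusted p = 0.00793) by edgeR. FANCE and FANCC belong to the same subcomplex of the ubiquitin ligase as FANCF, which was not called (0.08, adjusted p = 0.404 by edgeR). FANCE had 18.2, 13.9 and 14.7 CPM with DMSO, 15.9, 15.6 and 14.8 CPM at 150 nM, and 22.2, 26.0 and 23.6 CPM at 500 nM. FANCC had 33.7, 33.0 and 28.5 CPM with DMSO, 29.9, 34.9 and 34.7 CPM at 150 nM, and 44.0, 43.6 and 46.1 CPM at 500 nM. For both genes the 500 nM libraries lay above all others, and the 150 nM and DMSO libraries overlapped. They rose by 0.61 ± 0.10 (FANCE, adjusted p = 1.2e-05) and 0.49 ± 0.08 (FANCC, adjusted p = 1.08e-05) on the log2 scale by edgeR.

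BRIP1, a helicase that binds BRCA1, had 95.6, 97.4 and 100.4 CPM with DMSO, 97.8, 116 and 119.8 CPM at 150 nM, and 114, 124 and 119.8 CPM at 500 nM. The 500 nM libraries stood above DMSO, and the 150 nM libraries overlapped with both. It rose by 0.29 ± 0.07 at 500 nM (adjusted p = 0.000582 by edgeR). FANCD2, the substrate that the ligase marks, had 228, 232 and 228 CPM with DMSO, 244, 244 and 247 CPM at 150 nM, and 239.7, 240.3 and 247 CPM at 500 nM. Both doses lay above DMSO in every library, but the log2 fold change of 0.08 ± 0.05 at 500 nM was not called (adjusted p = 0.167 by edgeR). FANCI, its partner, had -0.02. The other ligase subunits had 0.16 for FANCG (adjusted p = 0.0624), 0.08 for FANCB, 0.08 for FANCF, -0.03 for FANCL, which is the catalytic subunit, and -0.10 for FANCA. FANCG was called higher by edgeR with total counts (adjusted p = 0.00107), a replicate block (0.0345) or only the libraries compared (0.032). It was also called with another filter or without some single libraries, but not by DESeq2 or limma-voom. FANCM, the translocase that recruits the ligase, had -0.10.

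**Figure D2:**
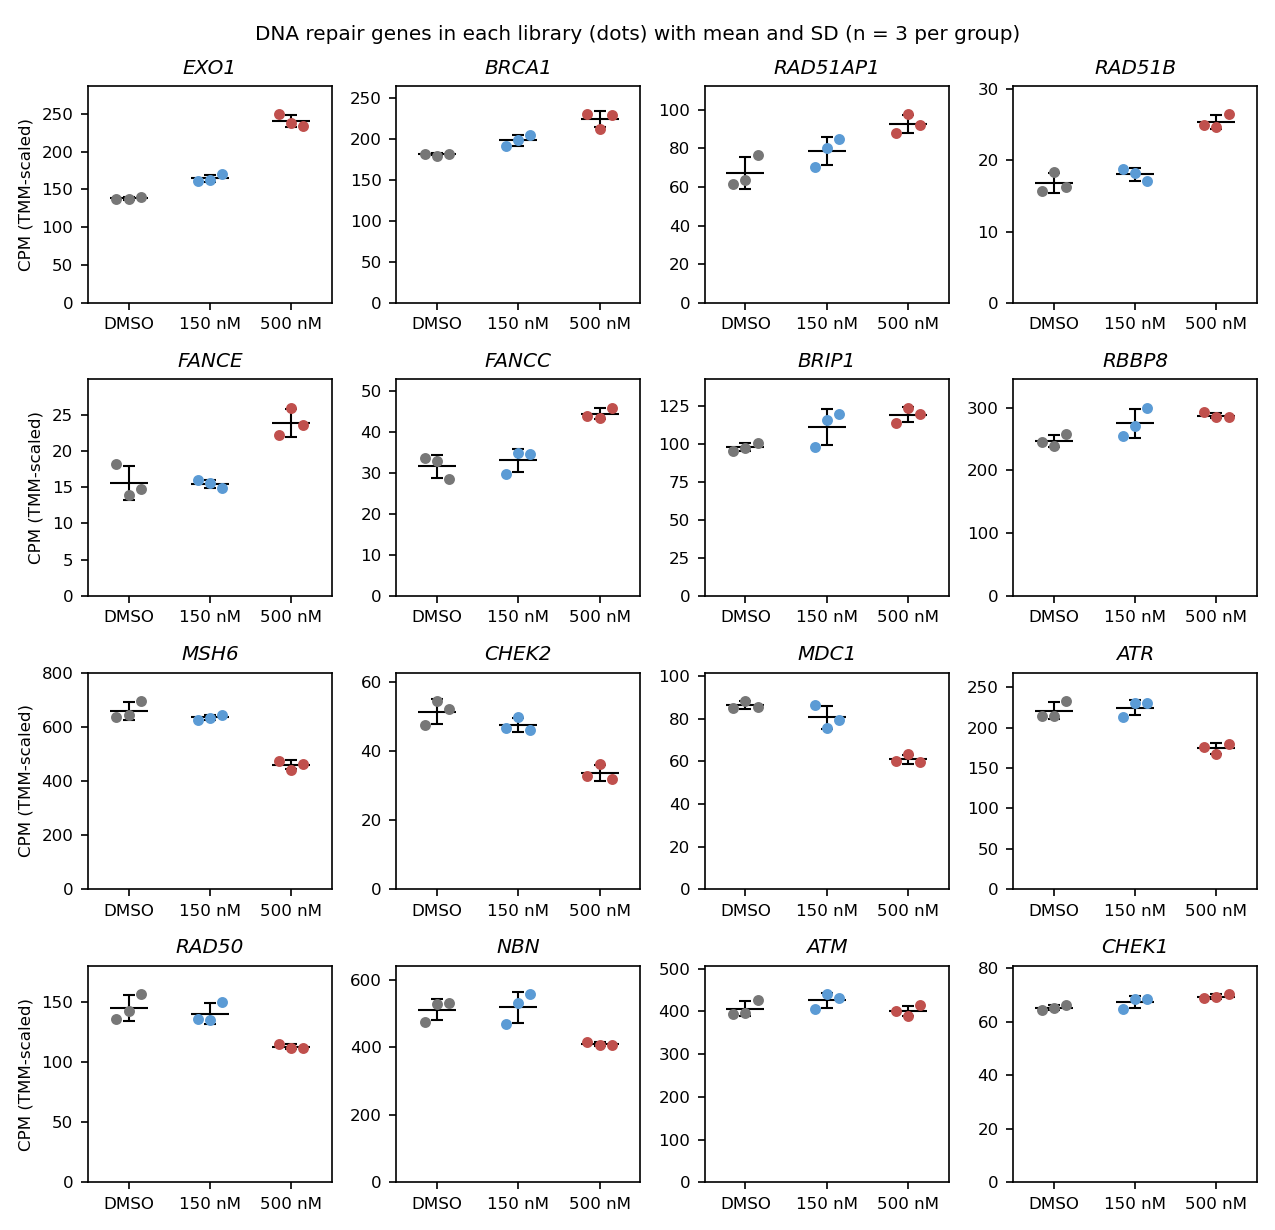
Level of selected repair genes in each library (points, in CPM) by dose from DMSO to 500 nM, with the group mean as a line and the SD as bars (n = 3). EXO1 stepped up at each dose, whereas MSH6, CHEK2 and ATR were lower in all 500 nM libraries than in all others.

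Of the 4 mismatch repair genes, MSH6 fell at 500 nM (25%, near the 25.6% of all genes) and the others were not called. MSH6 pairs with another MutS protein to recognise single mispaired bases, whereas MSH3 forms the pair for longer loops. MSH6 had 636, 643 and 696 CPM with DMSO, 626, 633 and 645 CPM at 150 nM, and 475, 442 and 462 CPM at 500 nM. All 500 nM libraries lay below all others, and the 150 nM and DMSO libraries overlapped. It fell by 0.52 ± 0.05 on the log2 scale (adjusted p = 5.01e-10 by edgeR), while MSH3 had a value of -0.0043 (adjusted p = 0.965).

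PMS2, the endonuclease subunit of the MutL pair, had 62.6, 70.1 and 66.5 CPM with DMSO, 67.6, 67.0 and 66.4 CPM at 150 nM, and 71.1, 67.4 and 65.8 CPM at 500 nM. The groups overlapped, with a log2 fold change of 0.04 ± 0.06 (adjusted p = 0.634 by edgeR) and a 95% interval of -0.09 to 0.17. PMS1, a related MutL protein, had -0.02. Near-identical pseudogene copies exist for PMS2, and related copies for CHEK2 and FANCD2, so the counting could split reads of these genes.

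Among the damage signalling genes, 3 of 8 fell at 500 nM (37.5%, beside 25.6% of all genes) and none rose, with a median log2 fold change of -0.042. That no gene rose depended on the processing: CHEK1 (0.12, adjusted p = 0.0369) and TP53BP1 (0.11, adjusted p = 0.0199) were called higher by edgeR with GC trends removed, and both of them, ATM and CLSPN with total counts. CHEK2, the effector kinase of ATM, had 47.5, 54.6 and 52.1 CPM with DMSO, 46.7, 49.9 and 46.0 CPM at 150 nM, and 32.7, 36.2 and 31.8 CPM at 500 nM. MDC1, the scaffold that binds marked chromatin around a break, had 85.3, 88.5 and 85.7 CPM with DMSO, 86.8, 75.9 and 79.3 CPM at 150 nM, and 60, 63.5 and 59.8 CPM at 500 nM. ATR, the kinase that answers to single-stranded DNA, had 215, 215 and 233 CPM with DMSO, 214, 229.9 and 230.2 CPM at 150 nM, and 176, 167 and 180 CPM at 500 nM. In each of the 3, the 500 nM libraries lay below all others and the 150 nM libraries overlapped with DMSO. On the log2 scale CHEK2 fell by 0.61 ± 0.08 (adjusted p = 9.18e-08), MDC1 by 0.50 ± 0.06 (adjusted p = 1.5e-07) and ATR by 0.34 ± 0.05 (adjusted p = 4.47e-06) by edgeR.

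The partner kinases did not pass the test. ATM, the kinase that answers to double-strand breaks, had 395, 397 and 427 CPM with DMSO, 407, 441 and 432 CPM at 150 nM, and 401, 391 and 414 CPM at 500 nM. The groups overlapped, and the log2 fold change at 500 nM was -0.02 ± 0.05 (adjusted p = 0.812 by edgeR), with a 95% interval of -0.12 to 0.09. CHEK1, the effector kinase of ATR, had 64.6, 65.1 and 66.4 CPM with DMSO, 65.0, 68.7 and 68.7 CPM at 150 nM, and 68.7, 69.1 and 70.4 CPM at 500 nM. Its 500 nM libraries lay just above DMSO, with a log2 fold change of 0.09 ± 0.06 that was not called (adjusted p = 0.239 by edgeR). The ATR activator TOPBP1 had -0.07, the CHEK1 adaptor CLSPN -0.0069, and TP53BP1, which limits resection, 0.07.

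Direct comparison of the doses gave 6 members higher and 11 lower at 500 nM than at 150 nM (39.5%), where 46.5% of all genes were called, 23.7% higher and 22.8% lower. Libraries of these doses did not overlap for 20 members (46.5%), against 55% of all genes. EXO1 was higher at 500 nM by 0.55 ± 0.05 on the log2 scale (adjusted p = 7.13e-10 by edgeR). The other 5 that were higher were FANCE, RAD51B, FANCC, RAD51AP1 and BRCA1, with values of 0.63 to 0.18. RAD51AP1 was not called without 150 nM replicate 1 (0.16, adjusted p = 0.0645 by edgeR) or 500 nM replicate 2 (0.20, adjusted p = 0.0758). CHEK2, MSH6, MDC1, ATR, NBN and RAD50 were lower, with values of -0.50 to -0.31. The 5 further genes that were lower, BLM (-0.20), FANCM (-0.19), RAD54B (-0.17), BARD1 (-0.15) and TOPBP1 (-0.14), were not called at 500 nM against DMSO, and each lost its call when some single library was left out.

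The split of calls depended on scaling. With total counts in place of TMM factors, 24 members were higher and 6 lower at 500 nM against DMSO, where 5716 of all genes were higher and 2514 lower. At 500 nM against 150 nM 14 members were higher and 6 lower, where 5257 of all genes were higher and 2137 lower. That scaling moved the median of all genes by 0.139 and 0.123 on the log2 scale in these comparisons. With GC trends removed, 9 members were higher and 9 lower at 500 nM against 150 nM, where 3781 of all genes were higher and 3900 lower.

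Ratios between partner genes within a library do not depend on scaling, and the pairs shown were chosen after the values were seen, so they have no test. The ratio of CHEK2 to CHEK1 counts was 0.452 to 0.523 at 500 nM and 0.736 to 0.838 with DMSO. That of ATR to ATM was 0.428 to 0.439 at 500 nM and 0.541 to 0.547 with DMSO. The ratio of MSH6 to MSH3 was 8.35 to 9.10 at 500 nM and 12.2 to 12.6 with DMSO. In these pairs the 500 nM libraries all lay below the DMSO libraries. The ratio of RAD50 to MRE11A was 0.943 to 1.01 at 500 nM and 1.19 to 1.22 with DMSO. Higher ratios at 500 nM were those of BRCA1 to BARD1, at 1.32 to 1.395 against 1.05 to 1.09 with DMSO, and of EXO1 to MSH6, at 0.507 to 0.538 against 0.201 to 0.216 with DMSO. None of these ranges overlapped between 500 nM and DMSO. Each pair holds a gene called at 500 nM, so such separation follows largely from the choice of pairs. At 150 nM the ratio of CHEK2 to CHEK1 was 0.670 to 0.726, that of ATR to ATM 0.521 to 0.533 and that of EXO1 to MSH6 0.257 to 0.263. In these 3 pairs the 150 nM libraries lay between the other groups with no overlap. Of their genes only EXO1 was called at 150 nM. For BRCA1 to BARD1, MSH6 to MSH3, RAD50 to MRE11A, RAD51B to RAD51C and FANCE to FANCF the 150 nM libraries overlapped with DMSO.

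**Figure D3:**
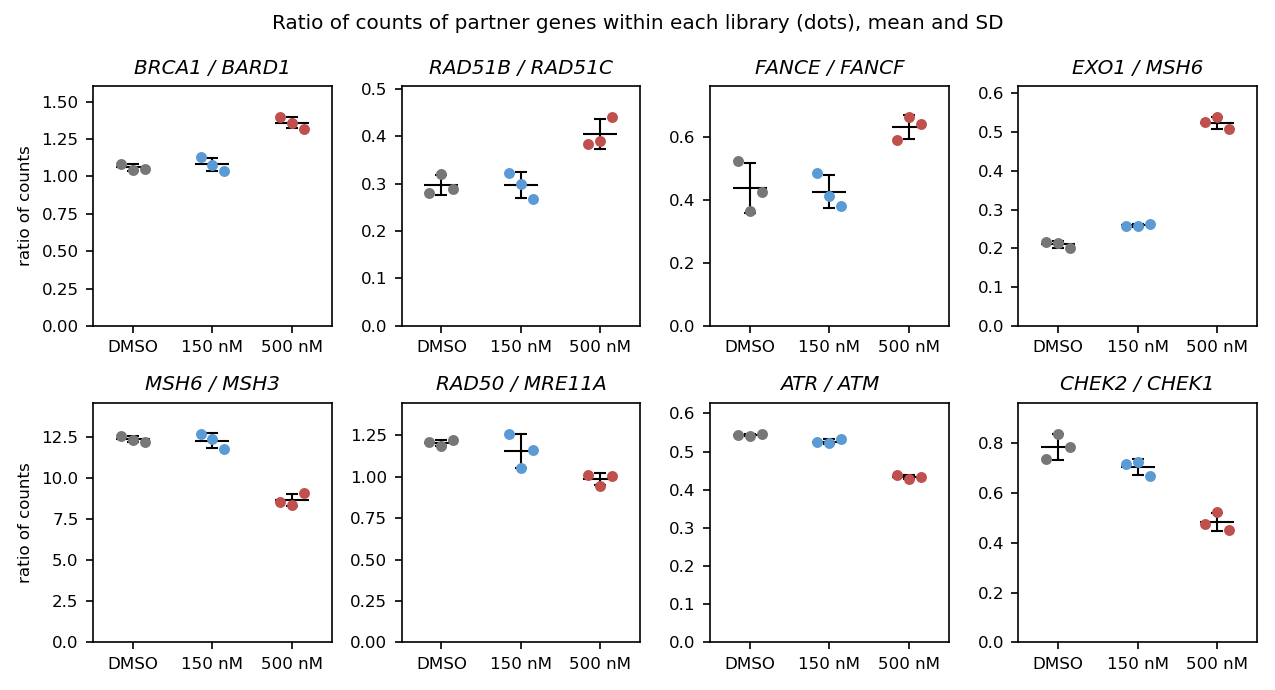
Ratio of the counts of paired repair genes in each library (points) by dose from DMSO to 500 nM, with the mean as a line and the SD as bars (n = 3). In all 8 panels the 500 nM libraries lie apart from the DMSO libraries. The pairs were chosen after the values were seen, each with a gene called at 500 nM, so the separation is no test.

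Levels between genes were compared per kilobase of each gene's longest annotated transcript. With DMSO, the median over members was 19.5 CPM per kb. The highest were NBN (104), MSH6 (88.1), FANCI (76.1) and RBBP8 (75.1 CPM per kb). The lowest were RAD51D (2.35), FANCE (6.10) and RAD51B (6.48 CPM per kb). The place of RAD51D rests on the long transcript taken for it. It had 23.5 CPM over 9.99 kb, beside 15.6 CPM over 2.55 kb for FANCE and 16.8 CPM over 2.6 kb for RAD51B. Members that rose and members that fell stood on both sides of the median: RBBP8 and EXO1 (39.7 CPM per kb) rose from above it and FANCE and RAD51B from below, while NBN and MSH6 fell from above it and RAD50 (17.4) and MDC1 (11.4 CPM per kb) from below. Across the 43 members the Spearman correlation of the 500 nM log2 fold change with the length of the longest transcript was -0.391. Over 14400 genes it was 0.107. Members share libraries and are not independent, so this is a description. The coefficient of variation within groups had a median of 4.33% over members.

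Neighbouring repair pathways were described with lists of genes outside the 43. At 150 nM none of their genes was called. At 500 nM 1 of 10 end-joining genes rose and 5 fell, with a median log2 fold change of -0.13, and the Ku subunit genes XRCC5 (-0.64 ± 0.05, adjusted p = 2.11e-12) and XRCC6 (-0.48 ± 0.04, adjusted p = 4.3e-10) were among those that fell by edgeR. POLQ, the polymerase of microhomology joining, rose (0.15 ± 0.06, adjusted p = 0.0241). Of 16 base excision genes 3 rose and 6 fell, with APEX1 (-0.76) and TDG (-0.75) among the lower and NEIL3 (0.39) and MUTYH (0.36) among the higher. Of 14 nucleotide excision genes 4 rose and 3 fell, led by the damage sensor gene DDB2 (0.81) and ERCC1 (0.54), with DDB1 (-0.25) and XPC (-0.22) lower. Of 9 translesion genes 2 rose, REV3L (0.48) and MAD2L2 (0.33), and 4 fell, among them POLH (-0.29) and REV1 (-0.21).

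Further partners of the member pathways moved both ways at 500 nM. Of 24 recombination partners 9 rose and 8 fell, with SWI5 (0.75) and PSMC3IP (0.69) higher and SLX4 (-0.54) and RPA1 (-0.38) lower. Of 8 Fanconi partners USP1, the enzyme that removes the mark from FANCD2, rose (0.37), and 3 fell, among them UBE2T (-0.54), the ubiquitin-conjugating enzyme of the pathway, and C17orf70 (-0.39). Of 9 mismatch partners 3 rose, among them RFC1 (0.27) and LIG1 (0.19), and 2 fell, RFC3 (-0.62) and MLH3 (-0.60). Of 10 checkpoint partners none rose and 4 fell, among them TIPIN (-0.37) and CDC25A (-0.24). The share called ran from 40% of checkpoint partners to 70.8% of recombination partners, beside the 52% of all genes given above.

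**Figure D4:**
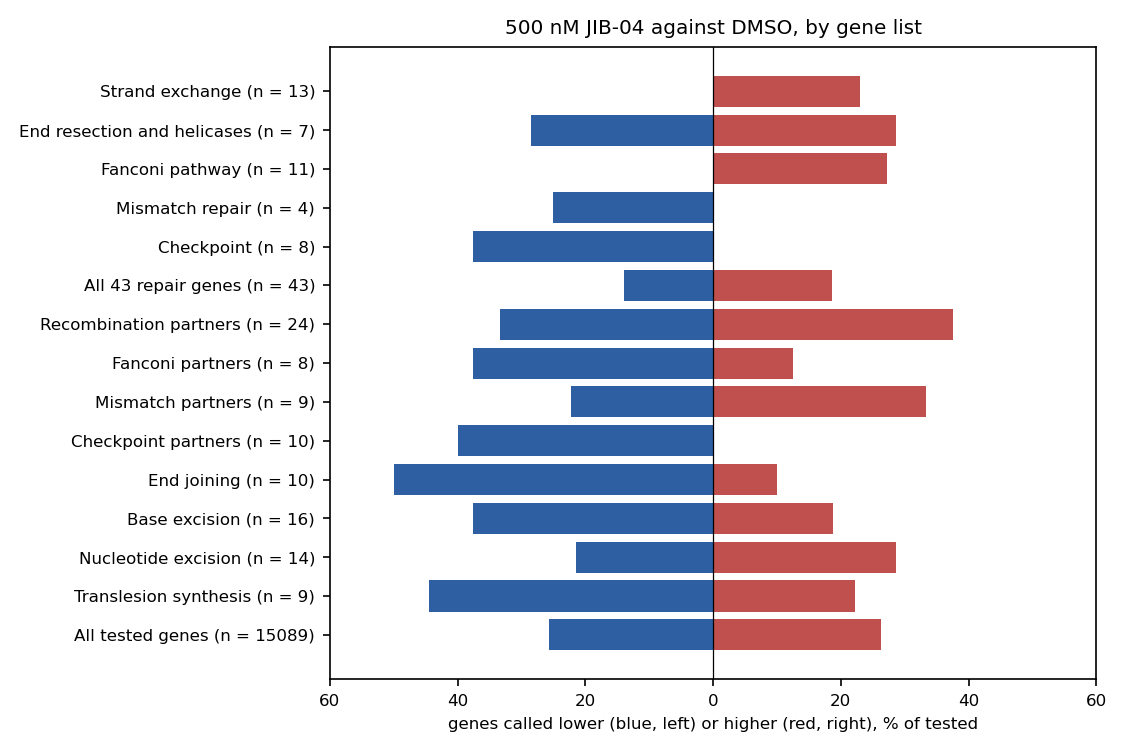
Share of each list called higher (red, right) and lower (blue, left), in percent of tested genes, at 500 nM against DMSO, for the 5 role groups and the neighbouring repair lists, with the share of all genes tested. In these calls, 3 of 8 checkpoint genes were lower and 3 of 13 strand exchange and 3 of 11 Fanconi genes higher. With GC trends removed, XRCC3 and FANCA were also lower, and CHEK1, TP53BP1, BRCA2, RAD51C, FANCD2 and WRN also higher. Differences between the lists were not tested.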

How the data were processed

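The authors deposited raw read counts per gene symbol for 9 libraries of ribosomal RNA-depleted RNA. Builds hg19 and mm10 and the tools featureCounts 1.4.6, Subread, Bowtie2 2.2.6 and TopHat2 2.0.14 are listed, without roles, per the submitters' processing notes. No source used here gives the strand setting. Counts were fitted with edgeR 4.0.16 in R 4.3.3 (filterByExpr, minimum count 10 and total 15; TMM; robust quasi-likelihood over all 9 libraries). P-values were adjusted by Benjamini-Hochberg over 15089 genes and called under 0.05. A standard error is the size of the unshrunk change over the root of F. The members and lists were chosen with earlier results of these data known, and opposite-strand and head-to-head genes were looked up (GENCODE v29) after values were seen.

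All 43 members are named, with per-library values for those called at 150 nM, up to 3 rising and 3 falling per role group at 500 nM, and 9 set genes; partner lists give up to 2 each way by smallest p. Replicate libraries were more different than sampling noise gives (chi-square per degree of freedom 6.59 to 16.1). Alternatives were DESeq2 1.42.0, limma-voom (limma 3.58.1), other scalings, filters and fits, GC or length trends removed (lowess span 0.3), a replicate block and leaving out each library.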

Additional observations from a re-analysis of the deposited data

How the results depend on the processing

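The 14 members called at 500 nM against DMSO were called under every alternative run. The number of members called was 30 (24 higher, 6 lower) with total counts, where 5716 of all genes were higher and 2514 lower, and 22 (14 higher, 8 lower) with GC trends removed, where 4254 were higher and 4305 lower. It was 14 to 17 when a library was left out. With total counts, which move the median of all genes by 0.139, FANCI (0.12, adjusted p = 0.021 by edgeR), ATM (0.12, 0.03) and CLSPN (0.13, 0.0177) were called higher, where the main values were -0.016, -0.016 and -0.0069. At 150 nM the count of 1 became 2 without a filter and 0 to 7 when a library was left out: 0 without DMSO replicate 2, 2 without DMSO replicate 3 and 7 without 150 nM replicate 1. For 500 nM against 150 nM the count of 17 became 12 to 19 when a library was left out. Same-numbered libraries were not paired by the labels. Their deviations correlated at -0.052 to 0.10, and those of differently numbered libraries of other groups at -0.083 to 0.035. A replicate block gave 1, 16 and 19 members called in the 150 nM, 500 nM and dose comparisons. Signs of values called in neither fit changed in 25 of 817 values at 150 nM and 34 of 817 at 500 nM, each with a main size of at most 0.063 and 0.121. DESeq2 and limma-voom each called 1, 15 and 18 members. Among members, FANCE, a gene with few counts, had the largest standard error at 500 nM (0.10).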

Other observations

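Many repair genes start head to head with another gene, and these neighbours were looked up after the values were seen, as a description with no test of the list. In GENCODE v29, 25 of the 43 members have a gene on the opposite strand that starts within 1000 bases, and 20 such neighbours were tested. Only the outermost annotated start of each gene was used, so neighbours at starts further in were missed. NBR1 and ERC1 stand at the outermost starts of BRCA1 and RAD52, which also have promoter windows at a distant start further in. At 500 nM 9 of them rose and 4 fell against DMSO by edgeR, and none was called at 150 nM. Among all genes tested 52% were called at 500 nM, 26.3% higher and 25.6% lower. Among the neighbours that rose, TEX14 (at most 0.932 CPM in any library) and GAS2 (at most 0.672 CPM) had very few counts. ERC1, beside RAD52 (0.07, not called), rose by 0.65 ± 0.06 on the log2 scale (adjusted p = 3.27e-10), and MAP1A, beside TP53BP1 (0.07, not called), fell by 0.58 ± 0.05 (adjusted p = 7.2e-10), both by edgeR. HSCB, beside CHEK2, which fell by 0.61, had -0.0075 ± 0.12 (adjusted p = 0.964 by edgeR). NBR1, beside the outermost start of BRCA1, rose by 0.50 ± 0.05 (adjusted p = 2.92e-09 by edgeR). The noncoding gene NBR2, annotated as a bidirectional promoter RNA inside the BRCA1 span, was not among the neighbours found. It rose by 1.52 ± 0.13 (adjusted p = 1.22e-10 by edgeR).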
